A study of Mus musculus with 12 samples.

Results

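The master peak-list of open chromatin in mouse blood cells held 1646 peaks that lay on an exon or a 5′ untranslated region (5′ UTR) away from the transcription start site (TSS) nearest to them in the list. They were taken from the 84243 peaks of the list by 2 criteria: HOMER, the program that annotated the list, assigned the peak to its exon or 5′ UTR class, and it placed the peak centre more than 500 bp from the nearest TSS. The 1646 peaks made up 1.95% of the list and 2.32% of its 71072 non-promoter peaks, with 1515 in the exon class and 131 in the 5′ UTR class. ATAC-seq, in which a transposase inserts sequencing adapters into exposed DNA, was carried out on 12 samples from C57BL/6 wild-type mice of 8 to 12 weeks. Hematopoietic stem cells (HSCs), megakaryocyte progenitors (MkPs), erythroid progenitors (EPs), granulocyte/macrophages (GMs) and B cells were sorted from bone marrow, and T cells carry thymus as their labelled tissue, with 2 replicates of each of the 6 cell types. The list pools all of these samples. It has 0 columns of values per sample, and a peak score of 0 throughout, so it cannot say in which cell type an exon was open, how deeply a peak was covered or how replicates varied. All values below therefore describe positions and sequence, peaks are not replicates of a condition, and the intervals given cover counting error only.

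A coding exon is read by the ribosome, but the same DNA can also be bound by transcription factors. Exons that act as enhancers of their own or of a neighbouring gene are known from developmental genes, and in such sequence 1 stretch of bases serves both the protein and gene control. The 5′ UTR is the transcribed sequence ahead of the start codon and can hold further promoters. CpG islands are stretches rich in G, C and the dinucleotide CpG that are mostly unmethylated in vertebrate genomes, lie at many promoters and often run on into the first exon. CTCF is a zinc finger protein that binds a long motif and anchors chromatin loops. PU.1, RUNX, GATA and C/EBP factors are regulators of blood cell development.

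The sequences behind these peaks can be read both as coding sequence and as a binding motif. The 10 stretches below are 30 bases each of the mm10 assembly (GRCm38, RefSeq), on the strand of the gene and from 5′ to 3′. Capitals mark the motif match, which reads as its reverse complement where it lies on the other strand. Every match lies wholly within a coding exon. The first 6 hold the CTCF core consensus and are shown because, of the strings searched, this motif had the largest ratio between its share in the peaks and its share in coding exons at large. The last 4 lie in genes of blood cell transcription factors. A match is a description of letters and not a site shown to be bound.
Lrp1, exon 24 of 89, minus strand, chr10:127576483-127576512: agccagagtGCCCTCTACTGGaccgacgtg
Polm, exon 2 of 11, minus strand, chr11:5836308-5836337: gccaaggagGCCATCTGCTGGcagaagaac
Hif3a, exon 5 of 15, minus strand, chr7:17051156-17051185: gcacgctcaCCAGCAGAGGGCgcacgctca
Dglucy, exon 6 of 14, plus strand, chr12:100841399-100841428: gcttctgctGCCCTCTGGTGGtcacaatga
Lrrk1, exon 12 of 34, minus strand, chr7:66300877-66300906: ccctgttcaCCACCAGAGGGCgccagcgtt
Pald1, exon 11 of 20, minus strand, chr10:61344156-61344185: gcaagctgtCCAGCAGAGGGCgctgtggag
Zbtb7b, exon 4 of 4, minus strand, chr3:89379876-89379905, RUNX: acgacctcaagaACCACAtgcacctgcaca
Bach2, exon 4 of 5, plus strand, chr4:32575386-32575415, PU.1: gcgctgtcgaaaGAGGAAgctggactgtat
Runx3, exon 2 of 6, plus strand, chr4:135152982-135153011, PU.1: gacagccccaacTTCCTCtgctccgtgctg
Tal1, exon 3 of 5, plus strand, chr4:115063301-115063330, SP: cagcggcgcgggGGGCGGccctgccagtgg

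The label of coding exons and 5′ UTRs was compared with the curated RefSeq transcripts. HOMER's labels also name RefSeq transcripts, so agreement at the peak centre was largely set in advance. The peak centre lay in coding sequence for 1514 of the 1646 peaks (92.0%, 95% Wilson interval 90.6 to 93.2%) and in a 5′ UTR for 127. Of the remaining 5 centres, 3 were intergenic, 1 was in an intron and 1 was in a non-coding exon. Both annotations thus gave nearly the same label to the centres, but the label did not hold for the whole width of a peak. Each peak was 499 bp wide, and coding sequence covered a median of 44.5% of it (quartiles 27.3 and 78.3%). Coding sequence filled 262 peaks entirely, and 62 peaks held no coding base.

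The peaks ranged from just beyond the promoter limit to far inside genes. Their median distance to the nearest TSS was 7630 bp (quartiles 1789 and 22107 bp), with 443 peaks (26.9%) within 2 kb and 713 (43.3%) beyond 10 kb. The TSS limit cut through a dense stretch: both classes together held 2840 peaks at any distance, of which 1194 were within 500 bp. The 3 chosen peaks nearest the limit were each at 501 bp, and the 3 nearest peaks left out were at 498, 494 and 493 bp. Peaks of these classes numbered 103 in the last 100 bp before the limit, all left out, and 88 in the first 100 bp beyond it, so the limit fell at no natural gap.

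The host exons ranged from short exons of usual internal size to very long ones. The host exon was known for 1638 peaks, with a median length of 279 bp and a range from 25 to 10502 bp, counting any untranslated part of the exon. It was at most 300 bp long for 841 peaks and longer for 797, and for 697 peaks (42.6%) it was longer than the peak itself. Exons of 301 to 500 bp held 100 peaks, but the classes in the plot by exon length are of unequal width, so their counts show no gap between short and long exons. The 5 longest coding exons with a peak were those of Amer2, an APC-binding protein (10502 bp), Purb, a single-stranded nucleic acid binding protein (8478 bp), Spen, a transcriptional repressor (8020 bp), Nrip1, a nuclear receptor corepressor (7613 bp), and Lrrc58 (7604 bp).

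**Figure D1:**
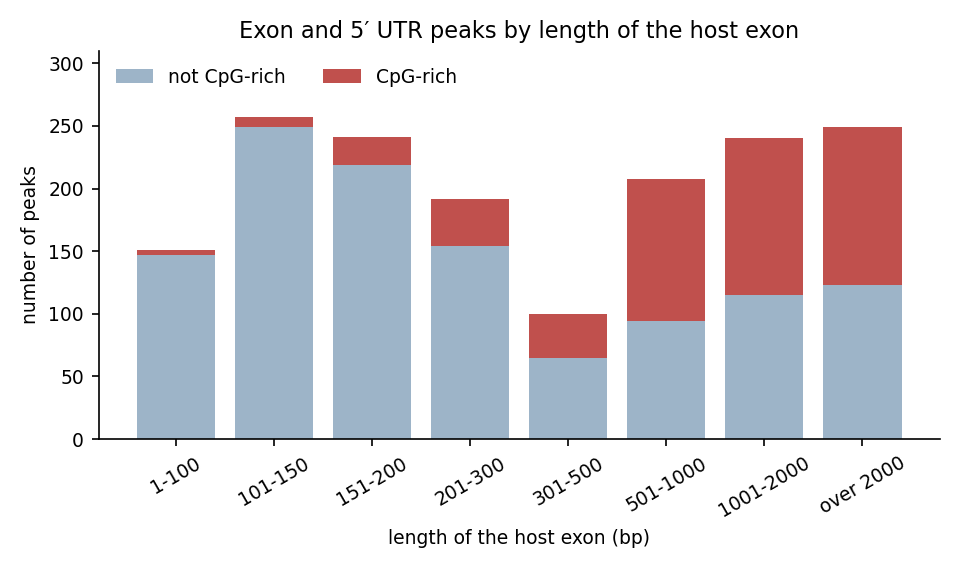
Number of exon and 5′ UTR peaks (vertical axis) by length of the host exon in bp (horizontal axis, unequal classes), for the 1638 peaks with a known host exon, with CpG-rich peaks stacked in red on the others in blue. CpG-rich peaks make up 3.11% of the class of 101 to 150 bp and 54.8% of the class of 501 to 1000 bp.

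Base composition differed between short and long exons. A peak was counted as CpG-rich when GC bases were over 50% of it and its CpG count was over 0.6 of that expected from its G and C content. By this measure 476 of the 1646 peaks were CpG-rich (28.9%, 26.8 to 31.2%), against 2.75% of intron peaks, 2.99% of intergenic peaks and 4.63% of gene end peaks (HOMER's classes of 3′ UTRs and transcription termination sites) beyond 500 bp from a TSS, and 74.8% of promoter peaks. The share rose from 2.65% (1.04 to 6.61%) in exons of up to 100 bp through 9.13% at 151 to 200 bp and 35.0% at 301 to 500 bp to 54.8% (48.0 to 61.4%) at 501 to 1000 bp. In longer exons it was 52.1% up to 2000 bp and 50.6% above. Split at 300 bp, a division chosen after seeing the data, it was 8.56% (6.85 to 10.7%) in short exons and 50.2% (46.7 to 53.7%) in long ones, intervals that lie far apart.

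The CpG-rich peaks also differed in position. Their host exons had a median of 1086 bp and their median distance to a TSS was 1474 bp, against 194 bp and 12234 bp for the other 1170 peaks. A promoter peak centre lay within 1 kb of 18.7% (15.5 to 22.5%) of the CpG-rich peaks and of 2.74% (1.94 to 3.84%) of the others. Exon length, CpG content and nearness to a TSS thus moved together among these peaks, as the plot of length against distance shows. Median GC was 56.1% in all exon and 5′ UTR peaks, against 47.7% in intron peaks, 47.1% in intergenic peaks and 63.3% in promoter peaks. Repeats were rarer: a mean of 7.83% of the bases were soft-masked in the assembly, against 15.2% in intron peaks and 17.1% in intergenic peaks. The GC content of DNA can affect how well it is amplified and sequenced, and its part in these counts was not tested.

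**Figure D2:**
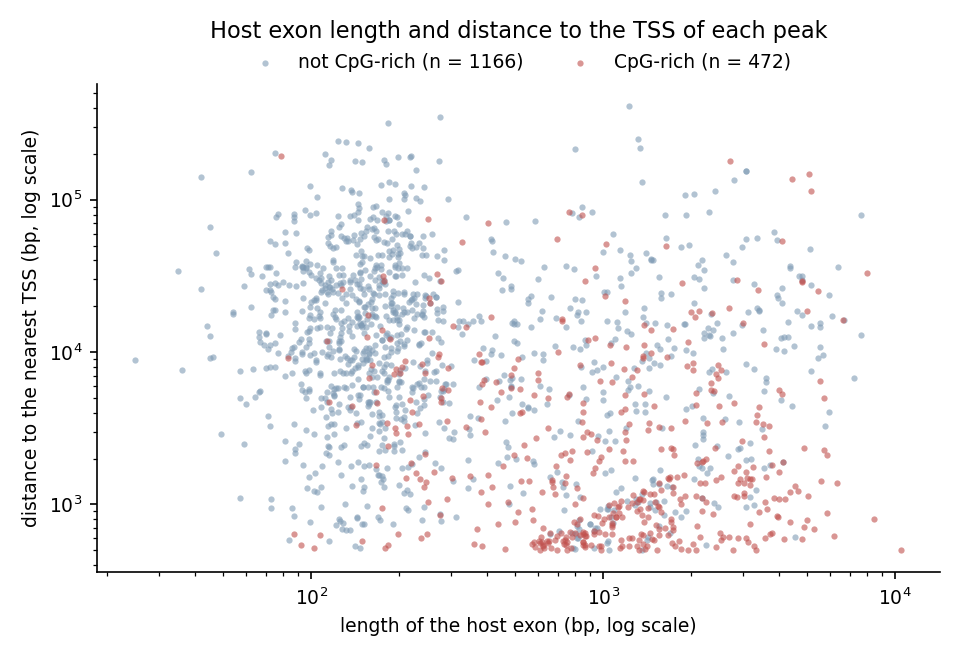
Each point is 1 of the 1638 peaks with a known host exon, plotted by exon length in bp (horizontal, log scale) and distance to the nearest TSS in bp (vertical, log scale), with CpG-rich peaks in red. Red points gather at long exons near a TSS (medians 1086 bp and 1474 bp for all CpG-rich peaks), while most blue points lie in short exons farther away.

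Most CpG-rich exons had no peak, but they had one more often than other exons did. RefSeq Select, which holds 1 transcript a gene, has 182627 coding exons with coding sequence beyond 500 bp from every curated TSS. A window of 499 bp at the exon midpoint was CpG-rich for 3603 of them (1.97%). A peak centre lay in 9.55% of these 3603 exons and in 0.693% of the others. Per Mb of coding sequence, CpG-rich exons held 281 peak centres (exact Poisson interval 252 to 311) and the others 40.8 (38.6 to 43.1). The difference was present at each exon length: CpG-rich exons of up to 300 bp held 351 centres per Mb (273 to 445) against 39.6, those of 301 to 1000 bp held 332 (281 to 389) against 34.5, and those over 1000 bp held 222 (186 to 262) against 47.8. Among the CpG-rich exons over 1000 bp, 20.6% had a peak. Annotated GENCODE transcript starts within 500 bp of the midpoint were also commoner there, at 52.6% of the CpG-rich exons and 15.8% of the others.

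The place of the exon in its transcript was described next. By the transcript that HOMER named, 168 peaks lay in the first exon, 215 in the second and 126 in the third. Another 733 lay in internal exons beyond the third, 325 in the last and 79 in the only exon of the transcript. The largest group was thus deep inside genes, at a median of 17594 bp from the nearest TSS. The share of CpG-rich peaks was 73.2% (66.1 to 79.3%) in first exons and 74.7% (64.1 to 83.0%) in only exons, but 8.46% (6.65 to 10.7%) in internal exons beyond the third. It was 31.2% in the second exon, 20.6% in the third and 42.8% (37.5 to 48.2%) in last exons, where the median exon length was 1610 bp.

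Counts by exon rank depend on how much coding sequence each rank holds, so they were set against it. Over 32.0 Mb of RefSeq Select coding sequence beyond 500 bp from a curated TSS, 1612 centres of the list gave 50.3 per Mb (47.9 to 52.8). These are nearly but not exactly the peaks described above, since RefSeq took the place of HOMER. First exons held 203 centres per Mb (169 to 241), only exons 76.1 (61.0 to 93.9), the second exon 59.8 (51.0 to 69.6), last exons 57.6 (51.7 to 64.1), the third exon 48.3 (40.1 to 57.7) and internal exons beyond the third 40.3 (37.5 to 43.2). At this limit the first exon lay above every other rank beyond counting error, while the intervals of the second, the last and the third exon overlapped. Intron sequence held 36.5 per Mb (36.1 to 36.8) and intergenic sequence 20.3 (20.1 to 20.5). Internal exons beyond the third thus held centres at a density a little over that of introns, with intervals that do not overlap. The exons were those of RefSeq Select, but the introns were those of all curated transcripts, non-coding ones included. Repeats stayed in both. So small a difference between unlike sets of sequence cannot be read as one in openness. With sequence within 1000 bp of a TSS left out, first exons held 118 per Mb (81.3 to 166) on 33 centres and only exons 110 (75.9 to 153) on 34. These intervals overlapped, and the first exon no longer stood above only exons. The wider limit left 0.279 of 0.642 Mb of first exons and 0.310 of 1.14 Mb of only exons, so the same sequence was not compared at both limits.

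**Figure D3:**
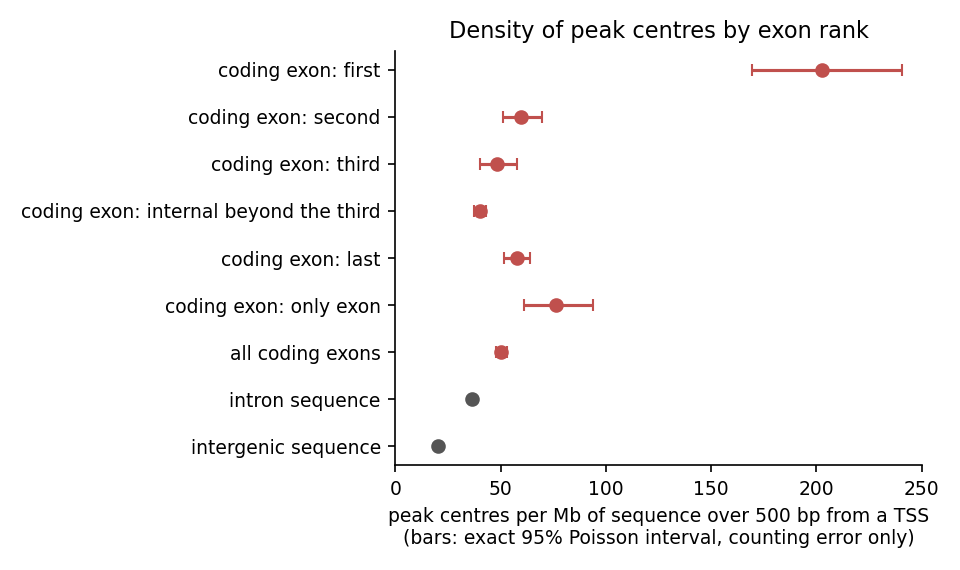
Peak centres per Mb of sequence more than 500 bp from a curated TSS (horizontal axis) for coding exons of each rank (red) and for intron and intergenic sequence (grey), with exact 95% Poisson intervals that cover counting error only. First exons stand at 203 per Mb, internal exons beyond the third at 40.3, introns at 36.5 and intergenic sequence at 20.3.

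Peaks were also found far along very long genes. Among the largest ranks were exon 129 of 157 of Neb, which encodes the giant muscle protein nebulin, exon 103 of 116 of Syne2 and exon 89 of 146 of Syne1, which encode nesprins of the nuclear envelope, and exon 86 of 90 of Adgrv1, an adhesion G protein-coupled receptor. These 4 exons were between 105 and 183 bp long, and none of the 4 peaks was CpG-rich. For 3 of the 4 the nearest promoter was that of another gene, at 103974 bp (Rif1), 81686 bp (Esr2) and 218634 bp (9330111N05Rik). A GENCODE transcript start lay 197 bp from the centre of the Neb peak. It was 5328 bp away for Syne2, 9383 bp for Syne1 and 58076 bp for Adgrv1.

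The 131 peaks of the 5′ UTR class formed a group near TSSs. Their median distance was 1103 bp and their median host exon was 656 bp. They lay in exon 1 for 51 peaks, in exon 2 for 65 and farther on for 15, so most were not in the exon that starts the transcript. The start codon was inside 68 of them (51.9%, 43.4 to 60.3%), and 56 were CpG-rich (42.8%, 34.6 to 51.3%). Among the transcription factor, chromatin and receptor genes examined, this class gave 3 peaks. The peak of Runx1, a master regulator of blood stem cells, lay at chr16:92696567-92697065 in exon 1, 513 bp from the TSS, and was CpG-rich. That of Tet3, a methylcytosine dioxygenase, lay at chr6:83455221-83455719 in exon 2, 922 bp from the TSS. That of S1pr1, a sphingosine 1-phosphate receptor that guides lymphocyte exit, lay at chr3:115712716-115713214 in exon 2, 2090 bp from the TSS. Neither of the latter was CpG-rich.

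Further transcript starts near the peaks were counted, since the distance in the list rests on 1 set of TSSs. A curated RefSeq TSS lay within 500 bp of 20 peaks (1.22%), and a curated or predicted one within 500 bp of 104 (6.32%, 5.24 to 7.60%). The choice of peaks kept the curated count low, since 99.7% of the promoter peaks left out had a curated RefSeq TSS within 500 bp. With the transcript starts of GENCODE vM21, a fuller annotation chosen after seeing the data, the count was 404 (24.5%, 22.5 to 26.7%), against 7.13% of intron peaks, 5.64% of gene end peaks and 4.94% of intergenic peaks. In the 5′ UTR class it was 70 of 131 (53.4%). GENCODE starts are dense in exons in general: 16.6% of all the coding exons above had one within 500 bp of the midpoint. The peak-list holds no RNA, so whether any of these starts was used in these cells was not tested.

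Motifs were searched as short strings on both strands of each peak. The CTCF core consensus was present in 84 of the 1646 peaks (5.10%, 4.14 to 6.28%). This is close to intron peaks (5.35%, 5.12 to 5.60%), below gene end peaks (10.5%) and intergenic peaks (7.14%), and above promoter peaks (1.37%). The order rested on an exact match: with 1 mismatch allowed, the share was 21.1% (19.2 to 23.1%), above intron peaks (18.5%, 18.1 to 19.0%) and overlapping intergenic peaks (22.2%, 21.7 to 22.6%). In windows on all 182627 coding exons the share was 0.431%, far below that of the peaks. Those windows were placed at the exon midpoint and the peaks at their own centre, so exons with and without a peak were not compared alike. The median match was 22.5 bp from the peak centre and 68 of the 84 were within 50 bp of it. Of the 84 matches, 59 (70.2%) lay wholly in coding sequence, where 51.5% of all bases of these peaks lay. The peaks were chosen by a centre in an exon or 5′ UTR, and most matches lay near the centre. These shares thus do not compare like with like. The coding strand held 25 of these 59 and the other strand 34.

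The CTCF matches belonged mainly to exons without a CpG-rich sequence. They were found in 72 of the 1170 peaks that were not CpG-rich (6.15%, 4.92 to 7.68%) and in 12 of the 476 that were (2.52%, 1.45 to 4.35%). By rank the share was 6.55% (4.97 to 8.58%) in internal exons beyond the third and 1.19% (0.327 to 4.24%) in first exons. The match in Lrp1, which encodes a large endocytic receptor, was 1.5 bp from the peak centre, and that in Polm, which encodes a DNA polymerase of end joining, was 49.5 bp from it. In Hif3a, a subunit of the hypoxia-inducible factors, the match was 1.5 bp from the centre, and in Dglucy, Lrrk1 and Pald1 it was 3.5 bp. Hif3a, Dglucy, Lrrk1 and Pald1 were chosen for matches close to the centre, which set these short distances in advance. All 6 matches are among the sequences printed at the start.

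Over all 1646 peaks, the GATA, RUNX, PU.1, CEBP and AP-1 strings were less frequent than in intron peaks. The ETS, SP and E-box strings were more frequent. The GATA string AGATAA was in 15.5% of exon and 5′ UTR peaks (13.8 to 17.3%) and 27.6% of intron peaks. The RUNX string TGTGGT was in 34.9% and 43.7%, the PU.1 string GAGGAA in 46.5% and 51.5%, the CEBP string TTGCNNAA in 16.8% and 20.4%, and the AP-1 string TGANTCA in 9.78% and 16.8%. In the other direction, the ETS string CCGGAA was in 16.2% (14.5 to 18.1%) against 7.86%, the SP string GGGCGG in 34.1% against 13.5%, and the E-box strings CAGCTG in 41.5% against 30.6% and CAGGTG in 40.8% against 32.8%. The KLF string CCACACCC was in 5.10% and 6.05%, with overlapping intervals over the whole peak. In the central 200 bp it was in 2.01% (1.43 to 2.80%) and 3.50% (3.31 to 3.70%), which do not overlap. GAGGAA and CCGGAA are both cores that ETS family proteins can bind, and matches of different strings can share bases.

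Coding exons at large gave a second comparison for the same strings. GATA matches were in 22.6% of the windows on all coding exons and AP-1 matches in 12.5%, both over the shares in all exon and 5′ UTR peaks together. RUNX was in 32.4%, PU.1 in 39.8%, ETS in 8.02%, CAGCTG in 27.7%, KLF in 4.11% and SP in 10.6%, all below. CAGGTG was in 39.0% of the windows and CEBP in 18.4%, both within the intervals of the peaks. The mixes were unlike: exons of up to 300 bp held 841 of 1638 peaks but 155996 of 182627 windows. In such exons the intervals of GATA (18.5 to 24.05%), AP-1 (10.6 to 15.15%) and KLF (3.92 to 6.95%) held the window shares. These were 23.05%, 12.7% and 4.18%. In longer exons GATA was in 9.54% of peaks against 19.7% of windows, and AP-1 in 6.78% against 11.3%. The share by sequence type also differed within the peaks: GATA was in 4.62% of the CpG-rich peaks and 19.9% of the others, and SP in 68.5% and 20.1%. In the 1170 peaks that were not CpG-rich, the intervals of PU.1 (52.1%), RUNX (41.9%) and CEBP (19.9%) held or overlapped those of intron peaks, and GATA (19.9%, 17.7 to 22.3%) and AP-1 (12.8%) stayed below theirs.

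Some matches lay in the coding part of a peak and some in its flanks. Coding sequence held 68.7% of ETS matches and 66.5% of CAGCTG matches, over the 51.5% of bases that were coding. It held 37.2% of GATA matches and 35.1% of AP-1 matches. PU.1 (55.1%), RUNX (51.8%) and CAGGTG (50.2%) matches were spread nearly as the bases were. Since the peaks were chosen by their centre, a string placed near the centre falls in coding sequence more often than the bases do. Coding sequence also covered a median of 81.3% of CpG-rich peaks and 37.1% of the others. The part of either in these shares was not tested.

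**Figure D4:**
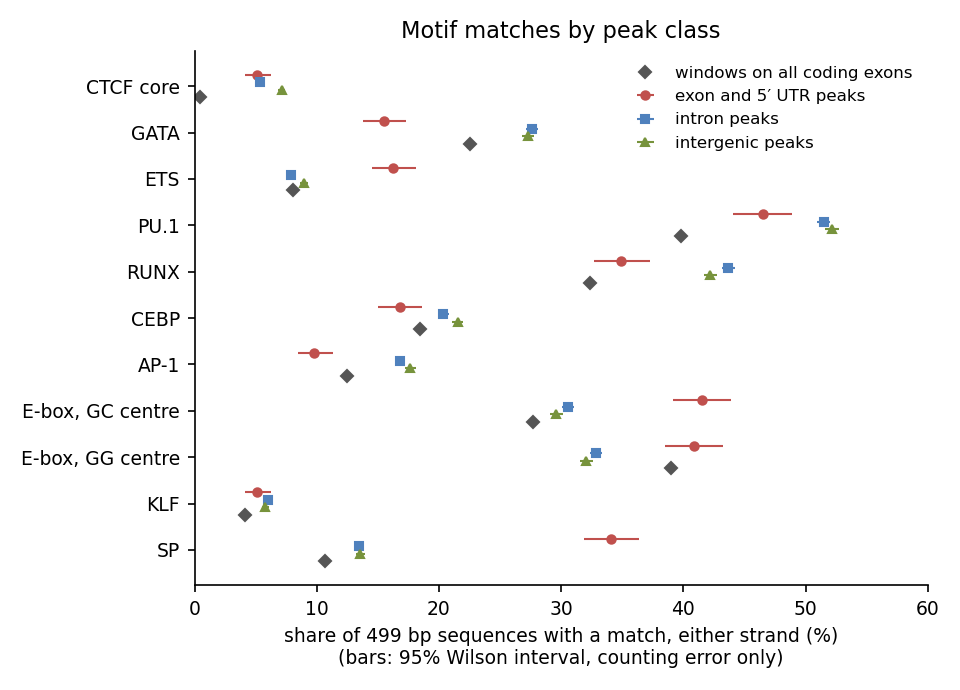
Share of 499 bp sequences with at least 1 match to each motif string on either strand (horizontal axis, percent), for exon and 5′ UTR peaks (red), intron peaks (blue), intergenic peaks (green) and windows on all coding exons (grey), with 95% Wilson intervals for the peaks. The E-box with GC centre is CAGCTG and that with GG centre is CAGGTG, and the CTCF core stands at 5.10% in the exon and 5′ UTR peaks and at 0.431% in windows on all coding exons.

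The peaks were spread over 1519 host genes, of which 1408 had 1 peak, 100 had 2 and 11 had 3, the most in any gene. In alphabetical order, the first 10 of those with 3 were Adam33, Akap13, Ccdc162, Celsr3, Cep250, Itsn1, Polm, Rai1, Rffl and Sptbn4. Polm had its peaks in exons 2, 5 and 9 of 11, at 1743, 3272 and 8457 bp from its TSS. Itsn1, an endocytic scaffold protein, had them in exons 5, 6 and 28 of 39. Those of Rai1, a chromatin-associated protein, all lay in exon 3, which is 5527 bp long. Celsr3, an adhesion receptor of planar polarity best known from neurons, had a CpG-rich peak wholly inside the coding sequence of exon 1, of 3996 bp, and 2 others in exons 2 and 25 of 36 that were not CpG-rich. In Akap13, a scaffold of protein kinase A, 2 of the 3 peaks were neighbours in exon 7, 949 bp apart and wholly coding.

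The nearest promoter was often not that of the gene whose exon was open. Host gene and nearest promoter were the same for 1161 of the 1641 peaks with a known host (70.8%, 68.5 to 72.9%). For the other 480, the median distance was 37551 bp to the TSS of the host transcript and 15341 bp to the nearest TSS, which for 125 of them belonged to a non-coding gene or pseudogene. An example is the Bach2 peak, 157956 bp from the TSS of the host transcript and at -3729 bp, upstream, from that of Bach2os. The target gene of a peak was not measured, and a host gene is named here by position only.

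Genes of blood cell regulation were examined in lists, counting the list genes that are the nearest promoter of at least 1 peak. Among 48 blood transcription factors, 10 (20.8%) had an exon or 5′ UTR peak, against 9.18% of the 15861 protein-coding genes that are likewise the nearest promoter of a peak. The lists themselves were chosen with earlier results of these data known. The blood transcription factors also had more non-promoter peaks, with a median of 10.5 a gene against 2 for all genes, and the part of this in the count was not tested. The peaks fell into both sequence types, and distances given for them are to the TSS of the list. A GENCODE transcript start lay within 500 bp of the centre for Myb (16 bp), Runx3 (42 bp), Hoxa9 (72 bp) and Bach2 (460 bp). For the remaining factors it lay between 509 bp (Runx1) and 7301 bp (Zbtb7b) away. CpG-rich peaks lay in Runx1, Runx3 (exon 2 of 6, 71.5% GC), Klf1, the erythroid factor (exon 2 of 3, wholly coding, 1287 bp from the TSS), Tal1, a factor of stem and erythroid cells (exon 3 of 5, 72.1% GC), Hoxa9, a homeobox factor of stem cells (exon 1 of 3), and Irf4, a factor of lymphoid cells (exon 2 of 9, 1397 bp from the TSS). The others lay in Irf8, a factor of myeloid cells (exon 3 of 9), Myb, which progenitors need (exon 10 of 16, 15906 bp from the TSS), Bach2, a repressor in B cells (exon 4 of 5), and Zbtb7b, which directs T cells to the CD4 fate (exon 4 of 4, 7783 bp from the TSS).

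Chromatin regulators and surface proteins gave like shares. Of 33 chromatin regulators, 8 (24.2%) had a peak: Tet3, Kmt2a, Arid1a, Arid1b, Chd7, Setd2, Hdac4 and Bcor, with a median of 5 non-promoter peaks a gene in the list. Arid1a and Arid1b, subunits of the BAF remodelling complex, both had a CpG-rich and wholly coding peak in exon 1 of 20, with 74.4% and 75.8% GC. Kmt2a, a histone H3K4 methyltransferase, and Chd7, a chromatin remodeller, had theirs in exons 11 of 36 and 29 of 38, neither CpG-rich. Of 48 receptors and surface proteins, 11 (22.9%) had 13 peaks, also with a median of 5 non-promoter peaks a gene. Gp5, which encodes a platelet glycoprotein, had 2 CpG-rich peaks in its exon 2 of 2, at 1096 and 1906 bp from the TSS. Notch3 and Notch4, receptors of the Notch pathway, each had a peak in their last exon, exon 33 and exon 30, and that of Notch4 was CpG-rich with 74.4% GC. Notch3 had another in exon 24. Peaks in Cd22 (exon 5 of 14), an inhibitory receptor of B cells, and Cd5 (exon 8 of 11), a marker of T cells, were not CpG-rich. The other genes were Itgb7, Itgal, Tnfrsf1b, Lrp1, S1pr1 and S1pr4.

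In the remaining lists the share was near that of all genes, but it rested on 4 and 3 genes. No intervals were computed for any of the lists, so whether they differ beyond counting error was not tested. Of 37 signalling proteins, 4 (10.8%) had a peak, among them Inppl1, an inositol phosphatase, Nfkb2, an NF-κB subunit, and Tsc2, an inhibitor of mTOR signalling. Their list had a median of 6 non-promoter peaks a gene. Of 29 neural developmental regulators, 3 (10.3%) had one: Neurod1, Neurog2 and Pou4f1, with a median of 2 non-promoter peaks a gene in the list. All 3 peaks were CpG-rich, wholly coding and in exon 2, between 1132 and 2347 bp from the TSS.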

How the data were processed

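ATAC-seq peaks came from 12 sorted mouse samples. The authors ran the ENCODE pipeline on mm10, combined the optimal peak lists of the cell types into non-overlapping peaks with chromVAR, and annotated them with HOMER (4.10.2 in the submitters' processing notes). The deposited positions and distances, in bp, were taken unchanged. The authors also deposited a peak score, 0 for each peak, which was ignored. Replicates are pooled in the list, and depth per sample is unknown.

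Exons, TSSs and sequence came from RefSeq release 108 of GRCm38. HOMER marks CpG islands and repeats in intron and intergenic peaks alone, so CpG content was computed from the sequence. Shares of peaks by class or type have 95% Wilson intervals and densities exact Poisson intervals. Shares of list genes, motif matches and exon windows have none. No test was run, since nothing was measured per sample. Named genes were the 10 with the most peaks, the list genes with a peak, and the 5 peaks each with the longest exon and largest rank. Some genes under this rule are not reported here. Sequences were taken from listed or most-peaks genes, otherwise from peaks with the match closest to the centre. Members and gene lists were chosen with earlier results of these data known. Alternatives concerned the promoter distance, gene set, exon cover, CpG measure, motif match and window. The motif search was tested on simulated data. Computations used Python 3.11.15, pandas 2.3.3, numpy 2.4.6, scipy 1.17.1, pysam 0.24.0 and matplotlib 3.10.9.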

Additional observations from a re-analysis of the deposited data

How the results depend on the processing

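No paired analysis was possible because the list pools the samples and has no columns per sample. For the same reason no replicate could be left out. Counting peaks over 100 bp from a TSS gave 2840 peaks, which are all peaks of both classes, since HOMER's promoter class takes the nearer ones. When coding sequence had to cover at least 50% of a peak, 44.1% of the peaks counted as coding. Leaving out 1000 bp around TSSs gave 118 centres per Mb in first exons and 110 in only exons, where fewer centres and less sequence remained. A further TSS lay within 500 bp of 1.22% of peaks by curated RefSeq transcripts and of 24.5% by GENCODE, which was added after seeing the data. The choice of peaks kept the curated share low. HOMER's labels put 0 peaks on a CpG island by construction, while the sequence measure gave 28.9%, or 8.56% in exons up to 300 bp and 50.2% in longer ones. With 1 mismatch the CTCF core matched 21.1%, above the 18.5% of intron peaks with an interval that overlaps that of intergenic peaks. In the central 200 bp alone, a shorter sequence, the shares were 7.05% for GATA, 9.11% for ETS, 27.5% for PU.1, 18.4% for RUNX, 7.47% for CEBP, 3.89% for AP-1, 24.4% for CAGCTG, 22.4% for CAGGTG, 2.01% for KLF and 19.6% for SP. There GATA, RUNX, PU.1, CEBP and AP-1 stayed below, KLF came to lie below, and ETS, SP and both E-boxes stayed above the intron peaks. The other 24 alternatives moved their values by less than counting error or by under 1.5 times.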

Other observations

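The share of exon and 5′ UTR peaks in the list differed between chromosomes, from 1.27% of the peaks on chromosome 12 to 2.64% on chromosome 7, with 1.37% on X and 0 of 11 peaks on Y. Gene density differs between chromosomes too, and its part was not tested.

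By the description of the nearest gene, 50 of the 1646 peaks (3.04%) lay at zinc finger genes and 114 (6.93%) at receptor genes, against 2.58% and 6.35% of the other non-promoter peaks. Kinase genes accounted for 48 peaks (2.92%, 2.21 to 3.85%), against 4.34% (4.19 to 4.50%) of the other non-promoter peaks. Of several families examined, only this one had intervals that did not overlap, and no allowance was made for their number. The nearest gene was often not the host gene. RefSeq lists functional elements, such as enhancers with experimental evidence, and 0 of the 1646 peaks overlapped one. Overlaps were rare in every class: 351 of the 71072 non-promoter peaks had one. These included 159 of 34137 intron peaks, 175 of 31692 intergenic peaks and 4 of 2268 gene end peaks. Among the 1194 peaks of the exon and 5′ UTR classes within 500 bp of a TSS, 5 had one. Whether the 0 reflects the sparse list of elements was not tested.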
